A study of Mus musculus with 1024 samples.

Results

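The Hippo pathway and its YAP/TAZ targets were followed here through 9 genes measured in single cells of the mouse aorta. The genes were chosen by name: the co-activators Yap1 and Wwtr1 (TAZ), their DNA-binding partners Tead1 and Tead4, the kinases Lats1 and Lats2, and the target genes Ctgf, Cyr61 and Ankrd1. All 9 were among the 24422 genes of the count table. No measured value entered the choice by the rule, but earlier results of these data were known when it was made.

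Aortae of WT mice and of mice lacking amotl2 in the endothelium (KO) were taken at 3 months of age, with mice of a genotype pooled, in 2 preparations of cells. Each preparation gave viable Cd45- cells that were Cd31+ (labelled endothelial) or Cd31- (kept as controls), sorted singly into plates for Smart-seq2. Every well carries the same strain label, Amotl2flow/flow / Cdh5-RREert /ROSA26-EYFP, the WT wells too. Per the study's methods, floxed amotl2 was crossed with Cdh5(PAC)-CreERT2, which recombines in endothelial cells after tamoxifen, and with a ROSA26-EYFP reporter, all on a C57BL/6 background with both sexes included. The labels name neither the mouse nor the sex of a well, so the preparation was the replicate and wells of a preparation were summed. In preparation 1 the WT and the KO cells had a plate each, and the effect of the plate cannot be told apart from that of the genotype, whereas preparation 2 was on a shared plate. Because n was 2 per genotype and gate and mice were pooled without names, p-values measure the spread between these sums only.

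The Hippo pathway is a kinase cascade that restrains growth-related transcription. The kinases MST1 and MST2 with their partner SAV1 activate LATS1 and LATS2, which phosphorylate YAP and TAZ and keep them in the cytoplasm. YAP and TAZ that reach the nucleus bind TEAD factors and raise genes such as Ctgf (CCN2), Cyr61 (CCN1) and Ankrd1. In vessels the pathway is known to respond to flow, cell shape, cell contacts and the actin cytoskeleton, and the angiomotin family, to which AMOTL2 belongs, binds YAP. Much of this control acts on proteins and their location, which RNA counts do not measure.

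The TEAD motif was looked up in the RefSeq promoters of the members, each running from 250 bases before to 50 bases after a start site (GRCm38.p6). Entries were found for Yap1, Wwtr1, Lats1, Lats2, Cyr61 and Ankrd1. The letters searched were GGAATG and their reverse complement CATTCC, which held in 14.7% of all 32851 promoters of the same length. Cyr61 and Ankrd1 are printed because both are classical targets and carried the motif, while their levels differed widely. Each sequence is the 250 bases before the RefSeq start site, 5′ to 3′ on the minus strand, with the motif in capitals.
Cyr61, chr3:145649986-145650235: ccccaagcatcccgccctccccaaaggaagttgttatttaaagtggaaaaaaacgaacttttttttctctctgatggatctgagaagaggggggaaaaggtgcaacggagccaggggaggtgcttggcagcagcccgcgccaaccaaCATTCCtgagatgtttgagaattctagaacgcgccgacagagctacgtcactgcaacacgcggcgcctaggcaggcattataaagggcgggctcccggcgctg
Ankrd1, chr19:36119845-36120094: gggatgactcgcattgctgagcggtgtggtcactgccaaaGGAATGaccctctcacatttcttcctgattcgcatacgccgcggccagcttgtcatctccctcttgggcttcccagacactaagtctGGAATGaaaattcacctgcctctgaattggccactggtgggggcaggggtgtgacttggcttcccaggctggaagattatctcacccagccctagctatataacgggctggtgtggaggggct
The Cyr61 promoter held 1 match, beginning 103 bases before the start site. The Ankrd1 promoter held 2, beginning 210 and 123 bases before its RefSeq start site, a number reached by 1.33% of promoters. In the GENCODE M21 annotation the Ankrd1 gene runs to base 36120099 and covers the whole printed stretch, so these distances hold for the RefSeq start only. The Yap1 and Wwtr1 promoters held 1 match each, 1 of 2 Lats2 promoters held 1, and the Lats1 promoter held none. A match of 6 letters describes the sequence only.

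Of 1024 wells, 784 reached 20000 gene counts with 500 or more genes detected, 676 of them Cd31+ and 108 Cd31-. The 8 sums held 926398 to 94881185 counts, and the median count per well lay between 46891 and 252839. Cd31- sums of preparation 2 rested on 12 WT and 14 KO wells. A count is a read left after removal of duplicates, not a molecule, so intervals for shares of wells cover counting error only. Clustering put 660 Cd31+ wells in 5 endothelial-like clusters, 14 in a smooth muscle-like and 2 in a fibroblast-like cluster. The Cd31- wells were 70 smooth muscle-like, 37 fibroblast-like and 1 endothelial-like, so that gate was a mixture. Its smooth muscle-like share differed between sums: 16 of 42 wells in WT and 31 of 40 in KO of preparation 1, and 10 of 12 and 13 of 14 in preparation 2. The summed level of 8 endothelial markers was 11509 to 14434 CPM (a gene's counts as a share of all gene counts of the sum, on the usual CPM scale) in Cd31+ sums and 42.1 to 692 in Cd31- sums, where Kdr and Emcn were at 0 throughout. The 7 smooth muscle markers summed to 734 to 1651 CPM in Cd31+ sums and 20785 to 52756 in Cd31- sums, and the 6 fibroblast markers to 162 to 466 and 4022 to 29452. The WT Cd31+ sum of preparation 1 stood apart: 154 of its 235 wells lay in a cluster led by Cd74, H2-Aa and H2-Ab1 that held 1 well from any other sum. EYFP, the reporter, was at 113 and 85.5 CPM in the KO Cd31+ sums, at 2.38 and 0.353 in the WT Cd31+ sums, and at 0 in the 4 Cd31- sums. Amotl2 itself was at 59.9 and 94.0 CPM in WT and 51.9 and 45.7 in KO Cd31+ sums. Its difference was −0.66 ± 0.32 (log2 fold change ± SE, edgeR, adjusted p = 1.00), and counts per gene do not resolve deleted exons.

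**Figure D1:**
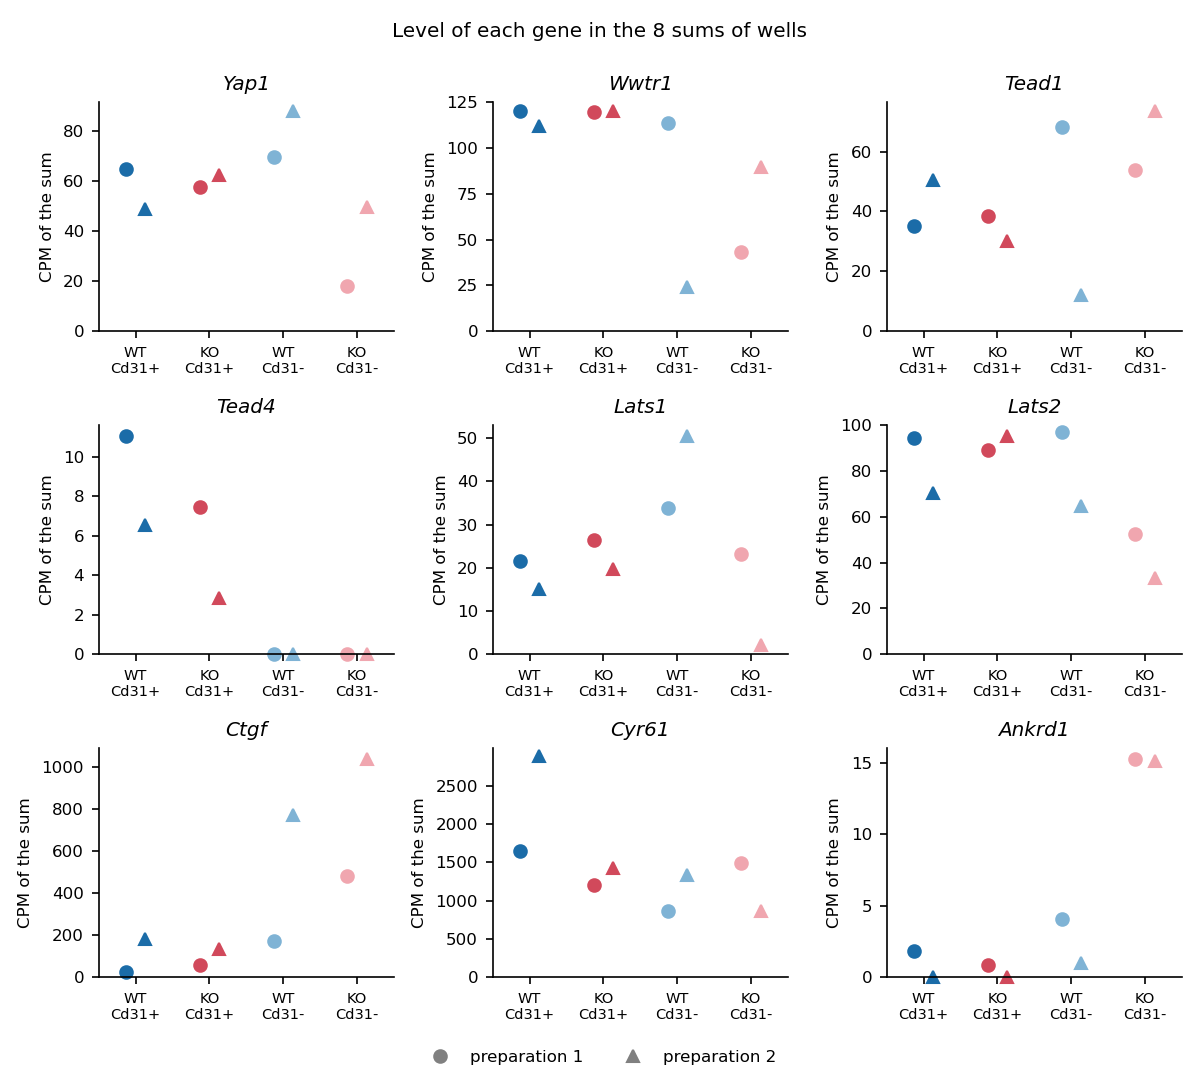
Level of each of the 9 genes in CPM (vertical axis from 0) in the 8 sums of wells, by genotype and gate, with preparation 1 as circles and preparation 2 as triangles. Each point is 1 sum. All 4 Cd31- sums are at 0 for Tead4, the lowest Ctgf values are Cd31+ sums, and Wwtr1 is at 112 to 120.3 in the 4 Cd31+ sums.

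Levels of different genes were compared per kilobase of merged exon (GENCODE M21, GRCm38), as the mean ± SD of 4 sums. Ctgf lies at chr10:24595442-24598683 on the plus strand, Cyr61 at chr3:145646976-145649981 and Ankrd1 at chr19:36111961-36120099 on the minus strand, and the counts cover whole genes, not single exons. The co-activator gene Yap1 lies at chr9:7931999-8004596 and Wwtr1 at chr3:57455649-57575910, both on the minus strand. Tead4 lies at chr6:128224288-128300823 and Lats2 at chr14:57689662-57758388 on the minus strand, and Tead1 at chr7:112679318-112906807 and Lats1 at chr10:7681214-7716460 on the plus strand. In Cd31+ sums the order was Cyr61, Ctgf, Wwtr1, Lats2, Yap1, Tead1 with Lats1, Tead4 and Ankrd1. Cyr61, which encodes a secreted matrix-associated protein, had 887 ± 373 CPM per kb. Ctgf, a close relative of Cyr61 and also secreted, had 34.9 ± 24.9, and its range of 8.82 to 63.3 covered that of Wwtr1. Wwtr1, which encodes TAZ, had 24.7 ± 0.849, above Lats2 at 12.5 ± 1.65 and Yap1 at 6.30 ± 0.765, with no overlap of the 4 sums between these 3 genes. Tead1 and Lats1 were both at 2.85 per kb with SDs of 0.639 and 0.637, and Tead4 at 1.94 ± 0.937 overlapped them. Ankrd1, which encodes a stress-responsive ankyrin repeat protein, was lowest at 0.230 ± 0.301. In Cd31- sums Cyr61 (562 ± 159 per kb) and Ctgf (216 ± 131) also led, and the next 3, Wwtr1 at 14.2 ± 8.60, Lats2 at 8.88 ± 3.82 and Yap1 at 6.08 ± 3.24, overlapped one another.

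The gate comparison asked how endothelial and other wall cells differ, with the mean of the 4 Cd31+ sums set against that of the 4 Cd31- sums. Ctgf was lower in Cd31+ sums, Tead4 was counted in Cd31+ sums only, and the other 7 members did not pass the test. Across all 12729 genes tested, 19% passed an adjusted p of 0.05, 9.79% with a higher level in Cd31+ sums and 9.25% with a lower one. Ctgf and Tead4 passed, but Tead4 came through the filter on low counts by its Cd31+ sums alone and so had to differ, and it is not counted as support. The median log2 fold change of all genes tested was 0.15, against 0.08 for the members.

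Ctgf was at 25.2 and 181 CPM in the WT Cd31+ sums of preparations 1 and 2, and at 57.3 and 136 in the KO Cd31+ sums. In the Cd31- sums it was at 172 and 773 CPM in WT and at 484 and 1039.5 in KO. The lowest Cd31- sum lay under the highest Cd31+ sum, so the gates overlapped over all sums, while within each genotype and preparation the Cd31- sum was the higher one. The mean was 6.18 times higher in Cd31- sums, and the log2 fold change was −2.70 ± 0.72 (SE, 95% interval −4.34 to −1.07, edgeR adjusted p = 0.0306). The call was lost without the KO Cd31- sum of preparation 1 (adjusted p = 0.0511) or 2 (0.0820), the KO Cd31+ sum of preparation 1 (0.0974), the WT Cd31- sum of preparation 2 (0.0762) or the WT Cd31+ sum of preparation 1 (0.0684), with the log2 fold change between −3.69 and −1.97 over all 8 omissions. Each such fit leaves a group of 1 sum, which is assumed to vary like the other groups. Without the 16 Cd31+ wells outside the endothelial-like clusters it was −2.86 (adjusted p = 0.0310). A count of Ctgf was found in 34.9% of the Cd31+ wells (95% interval 31.3 to 38.6, exact binomial) and in 85.2% of the Cd31- wells (77.1 to 91.3). After thinning each well to 20000 counts the share was 11.5 to 48.3% over the Cd31+ sums and 66.7 to 100% over the Cd31- sums, which did not overlap. How many of all genes separate by gate in this way was not computed, and the separation is not counted as support. The Ctgf counts of the Cd31+ sums sat in few wells: the tenth of wells with most counts held 66.1 to 93.1% of them, against 39.4 to 63.1% in the Cd31- sums.

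Tead4, a TEAD factor known for its part in the early embryo and in muscle, was found in Cd31+ wells only. It was at 11.0 and 6.53 CPM in the WT and at 7.45 and 2.83 CPM in the KO Cd31+ sums. No read of Tead4 was counted in any of the 4 Cd31- sums. The level over all Cd31+ wells was at least 48.3-fold higher, taking 3 counts over all Cd31- wells as the floor. The edgeR adjusted p of 0.0137 compares with sums that are all at 0. The call was lost without the KO Cd31+ sum of preparation 1 (adjusted p = 0.0561) or the WT Cd31+ sum of preparation 1 (0.0543). The share of wells with a Tead4 count was 8.94 to 16.0% over the Cd31+ sums. It was 0 of 108 Cd31- wells, where a floor of 3 wells is 2.78%, which is not an exact binomial limit. In the WT Cd31+ sum of preparation 2 a single well held 58.1% of the Tead4 counts.

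The co-activators themselves differed less. Yap1 was at 64.8 and 48.7 CPM in WT and 57.5 and 62.3 in KO Cd31+ sums, and at 69.5 and 88.1 in WT and 18.0 and 49.7 in KO Cd31- sums. Both ends of its range were Cd31- sums, and the gate difference was 0.08 ± 0.38 (log2 fold change ± SE, 95% interval −0.79 to 0.96, adjusted p = 0.914). Wwtr1 was at 120.3 and 112 CPM in WT and 119.9 and 120.1 in KO Cd31+ sums, and at 114, 24.3, 43.5 and 89.6 in the Cd31- sums (WT, then KO). Only 1 Cd31- sum, WT of preparation 1, reached the Cd31+ range. The gate difference of Wwtr1 was 0.68 ± 0.46 (95% interval −0.38 to 1.73, adjusted p = 0.375), and without that WT Cd31- sum it was 1.46 (adjusted p = 0.0256).

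Tead1, the TEAD factor found most widely in adult tissue, was at 35.1 and 50.6 CPM in WT and 38.5 and 30.2 in KO Cd31+ sums, and at 68.1, 12.1, 53.8 and 73.4 in the Cd31- sums (WT, then KO). Its difference was −0.54 ± 0.49 (95% interval −1.65 to 0.58, adjusted p = 0.519), and it turned to 0.36 without the WT Cd31- sum of preparation 1. Lats1 was at 21.7 and 15.2 CPM in WT and 26.4 and 19.8 in KO Cd31+ sums, and at 33.9, 50.6, 23.3 and 2.16 in the Cd31- sums. The last of these rested on 2 counts in 2 of 14 wells. Lats1 differed by −0.32 ± 0.59 (95% interval −1.65 to 1.00, adjusted p = 0.764), and by 0.99 without the KO Cd31- sum of preparation 1. Lats2, the second LATS kinase and itself a YAP/TAZ target, was at 94.3 and 70.5 CPM in WT and 89.1 and 95.3 in KO Cd31+ sums, and at 96.9, 64.8, 52.5 and 33.5 in the Cd31- sums. Its difference was 0.45 ± 0.30 (95% interval −0.23 to 1.12, adjusted p = 0.362). The kinases and Tead1 thus overlapped between gates.

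Cyr61 had the highest mean level of the members in both gates. It was at 1641 and 2887 CPM in WT and 1205 and 1429.9 in KO Cd31+ sums, and at 859.7 and 1329 in WT and 1487 and 865 in KO Cd31- sums. The gates overlapped, and the difference was 0.50 ± 0.30 (log2 fold change ± SE, 95% interval −0.19 to 1.19, adjusted p = 0.314). The share of wells with a Cyr61 count was 83.6% in Cd31+ wells (80.6 to 86.3) and 89.8% in Cd31- wells (82.5 to 94.8). Ankrd1 was at 1.83 and 0 CPM in WT and 0.822 and 0 in KO Cd31+ sums, and at 4.07 and 1.01 in WT and 15.3 and 15.1 in KO Cd31- sums. Its 151 Cd31+ counts came from 6 wells and its 186 Cd31- counts from 13. The difference was −3.41 ± 1.39 (95% interval −6.57 to −0.25, adjusted p = 0.132). The level passed the test when the Cd31+ wells outside the endothelial-like clusters were left out (−5.89, adjusted p = 0.0203). Among those wells was a smooth muscle-like one with 98.7% of the KO Cd31+ counts of preparation 1. Leaving those wells out was chosen after seeing the data. The level also passed with endothelial-like against smooth muscle-like wells only (−6.55, adjusted p = 0.0109), with DESeq2 (−3.51, 0.0406) and without the filter on low counts (−3.39, 0.0304). Ankrd1 came through that filter by its Cd31- sums alone, so the calls made under it are not counted as support. The call without the filter rests on the same few wells and is not counted either.

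**Figure D2:**
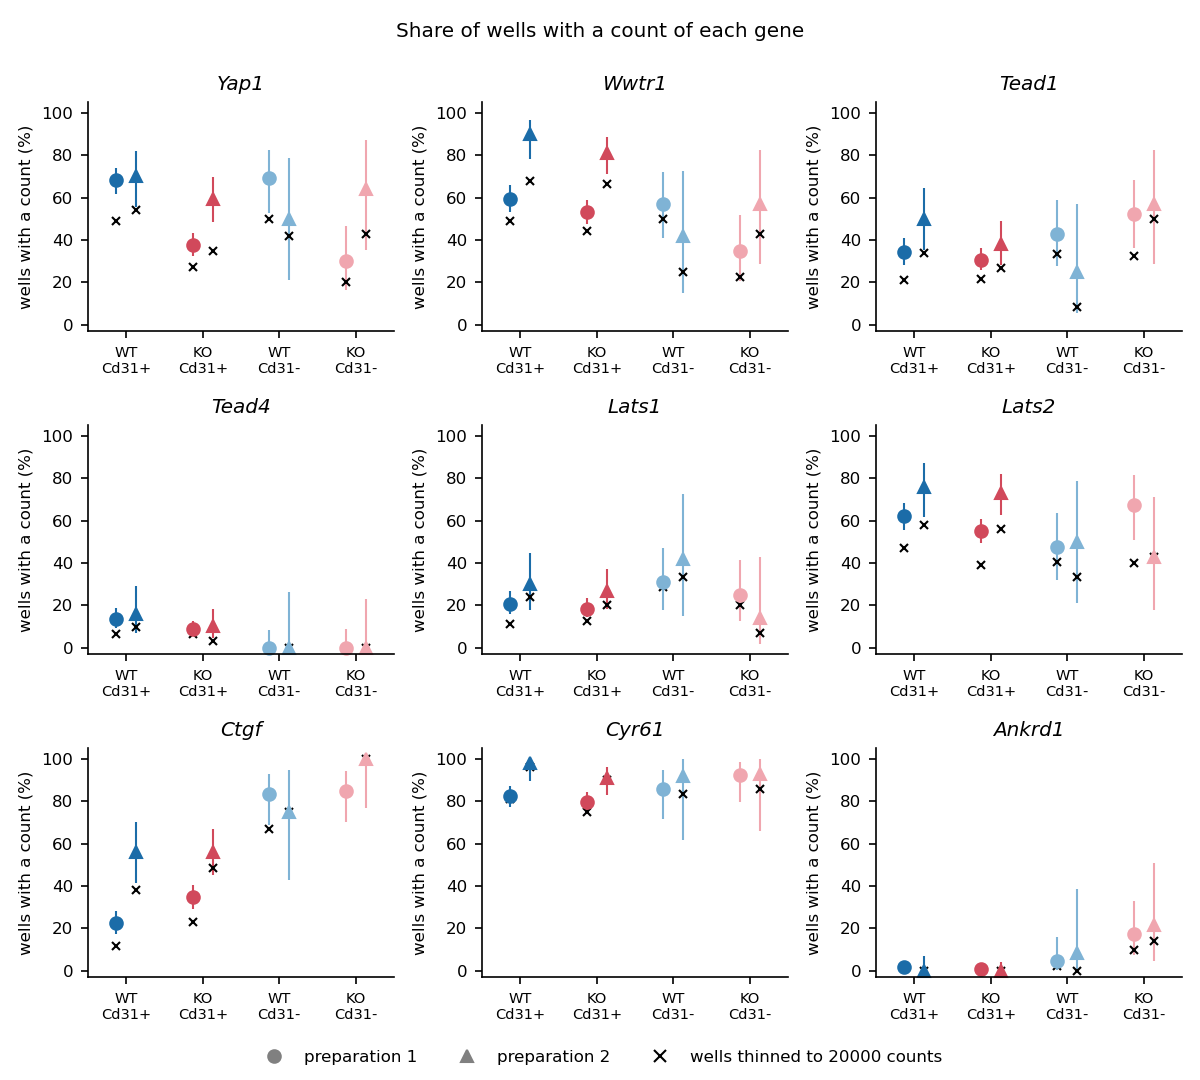
Percent of wells with at least 1 count of each gene (vertical axis), by genotype, gate and preparation, with 95% exact binomial intervals as lines. Crosses give the share after each well was thinned to 20000 counts. Ctgf is found in 75 to 100% of wells in the Cd31- sums and 22.6 to 56.2% in the Cd31+ sums, and Cyr61 in 79.8 to 98.0% of wells in every sum.

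Immediate early genes, which tissue digestion can raise, moved with the gate as well. The 10 such genes listed summed to 2547 to 5976 CPM in Cd31+ sums and 4160 to 13011 in Cd31- sums. Lower in Cd31+ sums were 4 of the 10, beside 9.25% of all genes, and none was higher: Atf3 (−3.71), Nr4a1 (−2.79), Fos (−2.41) and Egr1 (−1.45), as log2 fold changes. The Egr1 call was lost without the KO Cd31- sum of preparation 1 (adjusted p = 0.0709), either KO Cd31+ sum (0.0766 and 0.0565) or the WT Cd31+ sum of preparation 1 (0.0745), and those of Egr1 (0.0815) and Nr4a1 (0.0785) in wells with at least 100000 counts. Their part in the Ctgf difference was not tested.

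Clusters located the members within the gates, as a description. Ctgf was at 572 CPM in the smooth muscle-like cluster and 149 in the fibroblast-like cluster. It was at 0 to 75.8 CPM in the 5 endothelial-like clusters, and no count was found in the 21 wells of the cluster led by Slc6a6, Ssu2 and Nr4a2. The smooth muscle-like wells of the Cd31- sums had 253 and 845 CPM of Ctgf in WT and 589 and 1153 in KO, and the fibroblast-like wells of preparation 1 had 123 in WT and 135 in KO. Ankrd1 was mostly in the smooth muscle-like cluster, with 263 counts against 53, 18 and 3 in 3 endothelial-like clusters, a level of 18.1 CPM against 0 to 1.05 elsewhere. Tead4 had 1 count in the smooth muscle-like and 0 in the fibroblast-like cluster. Among endothelial-like clusters Tead4 was highest, at 40.8 CPM, in the Slc6a6 cluster, where 2 of 21 wells carried it, and its most frequent cluster was the one led by Fabp4, Cd36 and Lrg1 (27.3% of 33 wells). Cyr61 ran from 503 CPM in the Slc6a6 cluster to 1697 in that led by Frzb, Thbs1 and Calcrl and 1862 in the Cd74 cluster, over sums that fill the clusters unequally. Within the WT sum of preparation 1, which holds nearly all of the Cd74 cluster, it was at 1861 CPM there, 1753 in the Frzb cluster and 498 in the Slc6a6 cluster. At a finer resolution the Frzb wells were divided, and Cyr61 reached 2679 and Ctgf 192 CPM in 59 wells led by Thbs1, Cxcl12 and Emcn. Yap1 (33.2 to 74.0 CPM), Wwtr1 (82.2 to 136) and Lats2 (54.1 to 104) spread over all 7 clusters by less than these targets did. Relative to their levels, Tead1 (16.3 to 60.2 CPM) and Lats1 (6.51 to 30.3) spread about as much as Cyr61 or more.

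**Figure D3:**
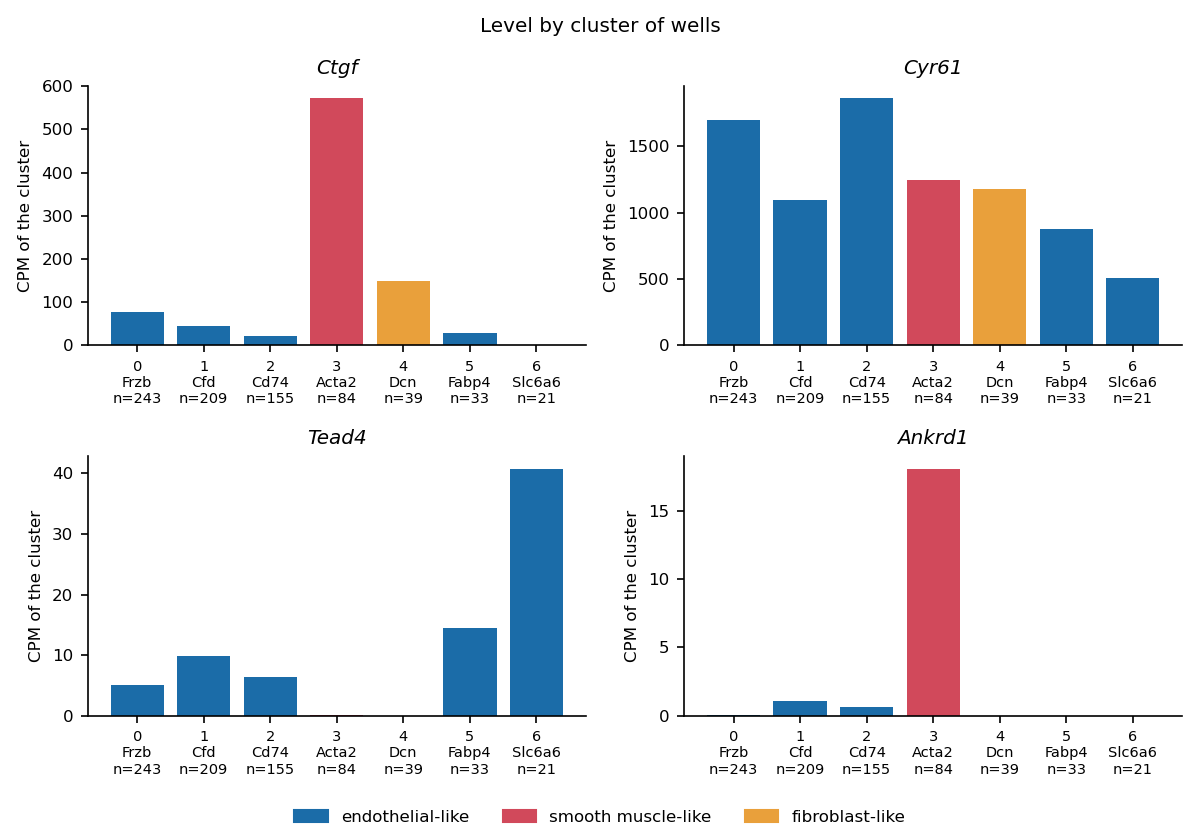
Level of Ctgf, Cyr61, Tead4 and Ankrd1 in CPM (vertical axes from 0) in the 7 clusters of wells, each named by its leading gene with its number of wells. Colours mark endothelial-like, smooth muscle-like and fibroblast-like clusters. Ctgf (572) and Ankrd1 (18.1) peak in the smooth muscle-like cluster, Tead4 is found in endothelial-like clusters apart from 1 count, and Cyr61 is present in all 7.

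Within the Cd31+ gate the wells with Ctgf and those with Cyr61 were set side by side. Over 676 Cd31+ wells, after the mean of each sum was removed, log-normalised Ctgf and Cyr61 correlated by 0.32, and by 0.35 over the 660 wells of endothelial-like clusters. The wells share libraries and depth, and the values are given as a description. Among the genes most like Ctgf of 9325 compared were the contractile genes Acta2 (r = 0.53) and Tagln (0.50), the matrix glycoprotein gene Thbs1 (0.42) and the collagen gene Col3a1 (0.41). Within endothelial-like clusters they were Thbs1 (0.51), Acta2 (0.46), the endothelin gene Edn1 (0.41), Tagln (0.41) and Aldh1a1 (0.38), so Acta2 and Tagln stayed on the list without the other wells. The genes most like Cyr61 were Edn1 (0.48), the growth factor gene Bmp4 (0.48), Thbs1 (0.45), the Wnt antagonist gene Frzb (0.43) and Serpinb6b (0.40). The immediate early genes correlated with Cyr61 by −0.01 to 0.32, with Egr1 and Ier2 highest at 0.32 each. With Ctgf they ranged from 0.02 to 0.17, with Fos highest, Egr1 at 0.10 and Ier2 at 0.07. Ankrd1 was found in 0.888% of the wells, and its correlations, such as those with Lbh (0.25), Acta2 (0.22), Ctgf (0.22) and Tgfb3 (0.22), rest on those 6 wells. Yap1 correlated by −0.01 with Ctgf and −0.02 with Cyr61, Wwtr1 by 0.09 and 0.08, and Tead1 by 0.17 and 0.10. Of the 676 wells, 53.6% had a count of Yap1, 61.8% of Wwtr1, 34.5% of Tead1 and 34.9% of Ctgf. Wells without a count limit what such correlations can show. Of wells thinned to 20000 counts in endothelial-like clusters, Ctgf was found in 12.4 and 38.3% of WT wells with Cyr61 (preparations 1 and 2) and in 27.4 and 50% of KO wells with Cyr61. Among wells without Cyr61 it was found in 1 of 44 and 0 of 2 WT wells and in 3 of 75 and 2 of 9 KO wells.

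The rest of the pathway was read from a list of 23 upstream regulators, angiomotins and TEAD partners, of which 20 could be tested between gates. Of these, 4 were higher in Cd31+ sums and 3 lower, with a median log2 fold change of 0.37. Beside these, 9.79% of all genes tested were higher and 9.25% lower, with a median of 0.15. Amot and Tead2 came through the filter on low counts by their Cd31+ sums alone and Tead3 by its Cd31- sums alone. As with Tead4, their calls are not counted as support. Ptpn14, a phosphatase that binds YAP, was at 165 to 217 CPM in Cd31+ sums and 13.2 to 41.1 in Cd31- sums (2.56 ± 0.38, adjusted p = 0.00237). Taok2, a kinase upstream of the MST kinases, was at 60.5 to 86.0 against 15.2 to 33.2 CPM (1.51 ± 0.31), and its call was lost without the KO Cd31+ sum of preparation 1 (adjusted p = 0.0683) and in thinned wells (0.169). Amot, the founding angiomotin, was at 5.78 to 17.2 against 0 to 1.06 CPM (4.67 ± 1.06), and its call was lost without the KO Cd31- sum of preparation 1 (0.0516), either KO Cd31+ sum (0.0730 and 0.0506) or the WT Cd31+ sum of preparation 2 (0.0732), and in wells with at least 100000 counts (0.0812). Tead2 was at 7.91 to 24.9 against 0 to 2.16 CPM (4.29 ± 1.19), a call lost with the preparation as a block (adjusted p = 0.0554) and without any 1 of the 6 sums other than those of KO Cd31- wells (0.0518 to 0.120).

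Lower in Cd31+ sums were Tead3, Vgll3 and Frmd6. Tead3 was at 0 to 0.885 CPM in Cd31+ sums and 7.08 to 15.1 in Cd31- sums (−5.38 ± 1.12), and its call was lost without the KO Cd31+ sum of preparation 2 (adjusted p = 0.0644). By level, Tead2 was higher in Cd31+ sums, Tead4 was counted there only and Tead3 was lower, while Tead1 did not pass. Each of Tead2, Tead3 and Tead4 came through the filter by 1 gate alone, so no conclusion is drawn from their calls. Vgll3, a co-factor that binds TEADs, was at 5.69 to 7.68 against 11.1 to 52.3 CPM (−2.15 ± 0.60), a call lost with the preparation as a block (0.0612), in wells with at least 100000 counts (0.109) and without any 1 of 6 sums (0.0819 to 0.159), the exceptions being KO Cd31- of preparation 1 and WT Cd31- of preparation 2. Frmd6, an upstream scaffold, was at 16.4 to 37.1 against 62.8 to 87.1 CPM (−1.70 ± 0.33), and its call was lost without the KO Cd31+ sum of preparation 2 (0.0619) and when only endothelial-like and smooth muscle-like wells were compared (0.123). The core genes Stk3, Stk4, Sav1, Mob1a, Mob1b and Nf2 did not pass.

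Of 22 YAP/TAZ target genes listed, 4 of which are members, 21 could be tested. Of these, 4 were higher and 6 lower in Cd31+ sums, with a median log2 fold change of −0.99, beside the same 9.79% and 9.25% of all genes. One of those higher, Nt5e, passed the filter by its Cd31+ sums alone. Nt5e, which encodes the ectonucleotidase CD73, was at 187 to 369 CPM in Cd31+ sums and at 0 in every Cd31- sum, at least 1481-fold higher over the same floor. Crim1, a transmembrane protein gene, was at 278 to 511 against 40.5 to 131 CPM (2.34 ± 0.35). Myof, a membrane repair gene, was at 110.3 to 143 against 28.0 to 59.4 CPM (1.49 ± 0.32), and its call was lost without the KO (adjusted p = 0.0638) or the WT (0.0508) Cd31+ sum of preparation 2. Ptpn14 was the fourth. On the other side, Axl, a receptor tyrosine kinase gene, was at 3.66 to 16.5 CPM in Cd31+ sums and 291 to 451 in Cd31- sums (−5.06 ± 0.48, adjusted p = 0.000318). F3, which encodes tissue factor, was at 0 to 5.80 against 107 to 1433 CPM (−7.99 ± 1.37) and was among the 10 leading genes of the fibroblast-like cluster. Arhgef17, a guanine nucleotide exchange factor gene, was at 0.944 to 6.21 against 58.8 to 185 CPM (−5.19 ± 0.77), Tgfb2 at 25.8 to 42.4 against 92.1 to 260.1 (−2.60 ± 0.39) and Rbms3 at 46.7 to 89.5 against 138 to 224 (−1.66 ± 0.29). Ctgf was the sixth. The target genes did not share 1 direction between gates.

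**Figure D4:**
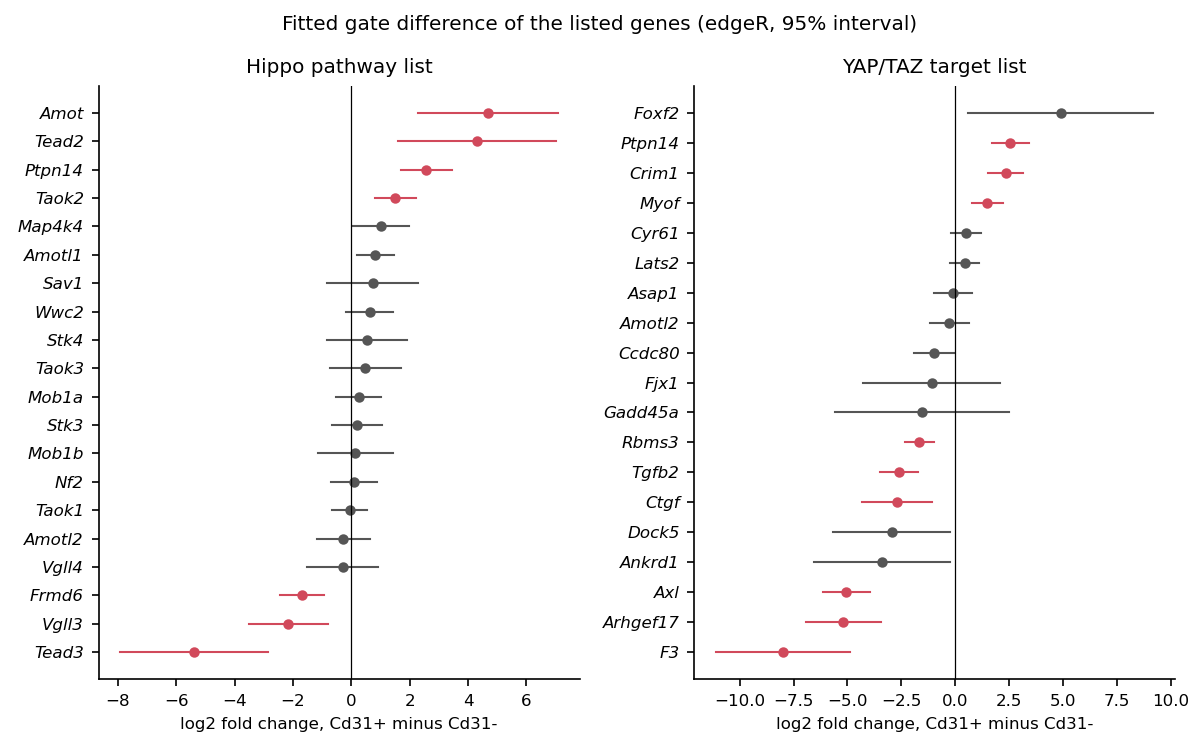
Fitted log2 fold change, Cd31+ minus Cd31- sums (horizontal axis, edgeR, with 95% intervals as lines), of the tested genes of the Hippo pathway list (left) and the YAP/TAZ target list (right). Red marks an adjusted p under 0.05, and genes with no count in 1 gate are left out. Calls lie on both sides of 0 in both lists, from Tead3 (−5.38) to Amot (4.67) and from F3 (−7.99) to Ptpn14 (2.56). Tead2, Tead3 and Amot came through the filter on low counts by the sums of 1 gate alone.

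The comparison of KO with WT Cd31+ sums asked what loss of amotl2 does to the pathway in endothelial cells. No member passed the test, and neither did any of the 12702 genes tested (0%). An unadjusted p under 0.05 was found for 468 of them in edgeR, and DESeq2 called 37. Here and below, such unadjusted counts were not set against the number expected without any difference, and no conclusion is drawn from them. With the preparation as a block 1 gene was called, EYFP (adjusted p = 0.000611, against 0.0596 without the block). In simulated counts of this comparison, edgeR recovered 0% of 200 genes changed by a log2 fold change of 1 and 68% of 200 changed by 3. Every simulated gene was given the same spread between sums, whereas the errors of the members differed. The simulation thus does not give the power for a single member. Without the WT sum of preparation 1, which stood apart, 311 genes were called, and 221 without the WT sum of preparation 2. Without the KO sum of preparation 1 or 2 the number was 5 or 35. With 1 sum left out, its group has 1 sum and the spread comes from the other genotype's 2 sums alone, which the lone sum is assumed to share.

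Cyr61 had the widest shift relative to its error. It was at 1641 CPM in WT and 1205 in KO in preparation 1, and at 2887 and 1429.9 in preparation 2. KO was thus lower in 2 of 2 preparations, and both KO values lay under both WT values. How many of all genes separate this way was not computed, and with 2 sums per genotype the separation is not counted as support. The log2 differences within preparations were −0.45 and −1.01. The fitted difference was −0.77 ± 0.33 (SE, 95% interval −1.51 to −0.03, edgeR unadjusted p = 0.0436, adjusted p = 1.00). Over the 13 alternatives the adjusted p was 0.0389 to 1.00, and it passed the threshold only without the WT sum of preparation 1 (−1.14), where 1 WT sum is left and the KO sums alone give the spread. Within the Frzb cluster Cyr61 was at 1753 and 3039 CPM in WT and 1486 and 1939 in KO, and within the cluster led by Cfd, Gkn3 and Nt5e at 1295 and 2717 in WT and 895 and 1029.6 in KO. KO was thus lower in each preparation within both clusters that all 4 sums filled, which are parts of the same sums. Of the 10 immediate early genes 0 had a positive fitted difference, against 6374 of all 12702 genes tested. Their median log2 fold change was −0.70, against 0.0025 over all genes tested. Fos (−0.93) and Egr1 (−0.86) had an unadjusted p under 0.05 (0.0183 and 0.0353, edgeR). The immediate early genes summed to 2848 and 5976 CPM in WT and 2923 and 2547 in KO. Their part in the Cyr61 difference was not tested.

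The CPM of Ctgf went in opposite directions in the preparations when whole wells were summed. It was at 25.2 CPM in WT and 57.3 in KO in preparation 1 (log2 difference 1.18), and at 181 and 136 in preparation 2 (−0.41). Both preparation 2 values lay above both preparation 1 values, and a single well held 37.0% of the WT counts of preparation 2. The fitted difference was −0.06 ± 0.75 (95% interval −1.75 to 1.63, adjusted p = 1.00), and its sign turned with the preparation as a block (0.39). Without the WT sum of preparation 2 it was 2.0 (adjusted p = 8.54e-06), again with 1 WT sum and the spread of the KO sums alone. Thinned to 20000 counts, 11.5 and 38.0% of WT wells and 22.8 and 48.3% of KO wells had a Ctgf count. The log2 differences of the thinned sums were 1.12 and 0.22, higher in KO in both preparations as the shares were, and the fitted difference of the thinned sums was 0.54 (edgeR adjusted p = 0.999). The direction in preparation 2 thus depended on whether deep wells kept their weight.

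The other members did not pass either. Wwtr1 differed by 0.06 ± 0.25 (95% interval −0.52 to 0.63), Yap1 by 0.09 ± 0.30 (−0.58 to 0.76), Lats2 by 0.17 ± 0.28 (−0.46 to 0.81) and Lats1 by 0.33 ± 0.42 (−0.62 to 1.28). Tead1 differed by −0.32 ± 0.34 (−1.09 to 0.45). Tead4 was lower in KO in both preparations, 7.45 against 11.0 CPM and 2.83 against 6.53, with a fitted difference of −0.79 ± 0.75 (−2.47 to 0.90). Ankrd1, at 73 counts in WT and 78 in KO, gave −1.10 ± 2.04. The share of wells with a Yap1 count was 68.1 and 70.0% in WT and 37.7 and 59.6% in KO, and 48.9, 54.0, 27.5 and 34.8% after thinning. A lower share in KO was not particular to Yap1. Within endothelial-like wells Wwtr1 was counted in 58.7 and 91.8% of WT and 53.4 and 80.5% of KO wells. Tead1, Tead4, Lats1, Lats2 and Cyr61 also had lower shares in KO in both preparations, and Ctgf did not. The median number of genes detected per Cd31+ well was 3774 and 5501.5 in WT and 3314 and 4505 in KO. Whole-well Yap1 CPM was lower in KO in preparation 1 and higher in preparation 2 (log2 differences −0.17 and 0.36), while the thinned sums were lower in KO in both (−0.41 and −0.51), with a fitted difference of −0.45 (edgeR adjusted p = 0.999). The tenth of wells with most Yap1 counts held 50.4 and 51.6% of them in WT and 78.2 and 62.7% in KO. Of the pathway list 19 genes could be tested and of the target list 22, and none passed.

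**Figure D5:**
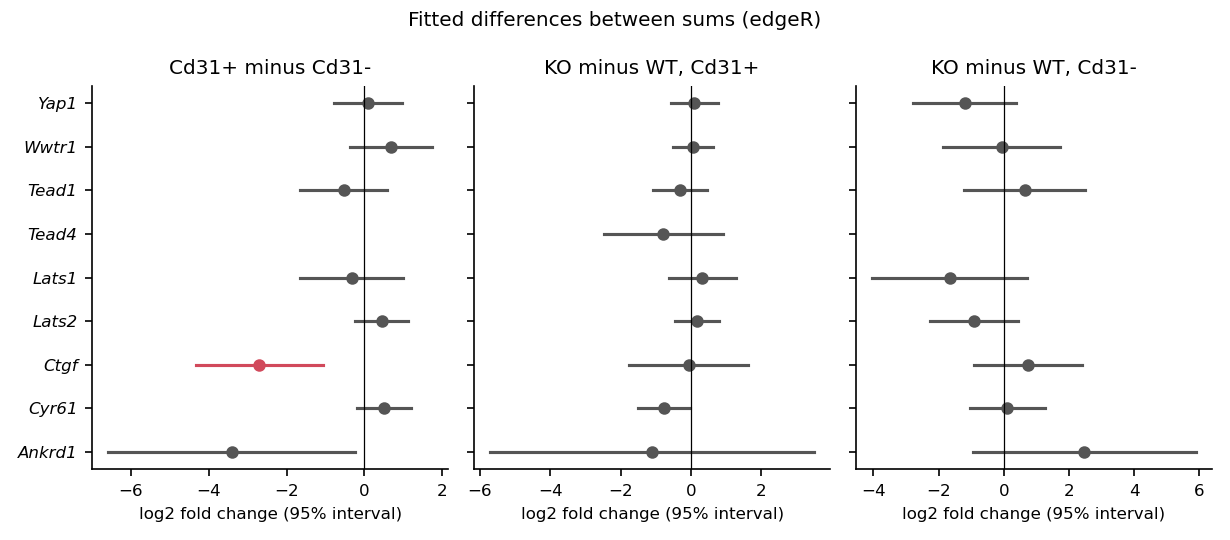
Fitted log2 fold change of each member (horizontal axis, points, edgeR) with 95% intervals as lines, for Cd31+ minus Cd31- sums, KO minus WT in Cd31+ sums and KO minus WT in Cd31- sums. Red marks an adjusted p under 0.05, which Ctgf has in the gate comparison (−2.70). Tead4, with no count in Cd31- sums, is drawn only for KO minus WT in Cd31+ sums (−0.79), and the Cyr61 interval there ends at −0.03.

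In the Cd31- gate, whose cells are not the target of the Cre, KO and WT sums were compared as a control. No gene of 10544 passed (0%) in edgeR, 275 had an unadjusted p under 0.05, and DESeq2 called 5. Without a single sum edgeR called 0 to 79 genes, 79 of them without the WT sum of preparation 2, 45 without WT of preparation 1 and 15 without KO of preparation 2. Yap1 was at 69.5 in WT and 18.0 CPM in KO in preparation 1 and at 88.1 and 49.7 in preparation 2, a fitted difference of −1.21 ± 0.70 (95% interval −2.79 to 0.38, adjusted p = 1.00). Both KO values lay under both WT values, although these sums also differ in their smooth muscle-like share. The share of all genes that separate this way was not computed. Within smooth muscle-like wells Yap1 was at 121 and 90.7 CPM in WT and 20.3 and 51.6 in KO. Lats2 was at 96.9 and 64.8 in WT and 52.5 and 33.5 in KO (−0.91 ± 0.59), and Lats1 at 33.9 and 50.6 in WT and 23.3 and 2.16 in KO (−1.66 ± 1.05). Ctgf was at 172 and 773 CPM in WT and 484 and 1039.5 in KO (0.74 ± 0.73), and Ankrd1 at 4.07 and 1.01 against 15.3 and 15.1 (2.47 ± 1.51), from 3 WT and 10 KO wells. Wwtr1 (−0.06 ± 0.79), Cyr61 (0.11 ± 0.51) and Tead1 (0.64 ± 0.82) moved in opposite directions in the 2 preparations. None of 18 pathway genes and 17 targets tested passed.

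Whether the KO difference itself differed between gates was tested as an interaction over all 8 sums. No gene of 12729 passed (0%) in edgeR, with 657 at an unadjusted p under 0.05 and 46 called by DESeq2. The estimates, as the KO minus WT log2 difference in Cd31+ sums less that in Cd31- sums, were 1.30 ± 0.77 for Yap1, 1.92 ± 1.18 for Lats1, 1.05 ± 0.60 for Lats2, −0.89 ± 0.61 for Cyr61 and −0.78 ± 1.35 for Ctgf, with adjusted p from 0.990 to 1.00. Lats1 was higher in KO in both preparations in Cd31+ sums (0.29 and 0.39 on the log2 scale) and lower in both in Cd31- sums (−0.54 and −4.55), a contrast that this test did not call. For Tead4 no interaction is given, because both genotypes were at 0 in Cd31- sums. Without the WT Cd31- sum of preparation 1, 42 genes were called for the interaction, none of them a member.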

How the data were processed

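The authors aligned Smart-seq2 reads to GRCm38 with STAR 2.7.7a, removed duplicates with Picard 2.22.0 and deposited counts per gene from HTSeq 0.9.1, without normalization. Neither the spike-ins (1.25% of counts) nor the HTSeq summary lines (46.9%) entered library sizes or tests. The annotation release was not given in the sources used here.

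Wells were kept as in the study's methods and clustered with Seurat 5.3.0 at a resolution of 0.5, and clusters were named from markers of 9 cell types. Doublets were not called, each well having received 1 sorted cell. Markers of immune (0 to 3.26 CPM), mesothelial (0), pericyte (0.118 to 1642), lymphatic endothelial (0 to 58.3), erythroid (0) and Schwann cells (0 to 7.10) were summed too. Wells were summed by genotype, gate and preparation, and tested with edgeR 4.0.16 (TMM, filterByExpr, glmQLFit, glmQLFTest, Benjamini-Hochberg threshold 0.05) in R 4.3.3, after a check on simulated counts. Preparations are shared by the labels: after removal of group means, sums of a preparation correlated by 0.144 (Cd31+) and 0.0849 (Cd31-). Alternatives were the preparation as a block, RLE factors, no filter, DESeq2 1.42.0, each sum left out, deeper wells, thinned wells, wells by cluster and 1 fit over all sums. Leaving out Cd31+ wells of other clusters was chosen after seeing the data. The members and lists were chosen with earlier results of these data known. Named are the members, Amotl2, EYFP, up to 6 listed genes per direction that passed with the same sign in every preparation, and immediate early genes that moved with Ctgf or Cyr61. For Ctgf and Ankrd1, 1 of the most similar genes is not reported here. Sequences are from RefSeq (GRCm38.p6). Values used numpy 2.4.6, pandas 2.3.3, scipy 1.17.1 and matplotlib 3.10.9.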

Additional observations from a re-analysis of the deposited data

How the results depend on the processing

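Over 477 values of members under an alternative, 435 kept their direction and side of the threshold and 29 changed sign, whatever their side of it. With the sign kept, 7 calls were lost and 6 gained. The calls lost or gained are given beside each member. Precision was limited by 2 preparations per group. The Cd31- sums of preparation 2 held 12 and 14 wells, and some genes were held in few wells. Thinning moved 13 of 18 shares of wells beyond their interval and the depth filter 4 of 18, and the finer clustering moved 7 of 36 cluster levels. The causes were not tested.

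Genes called between gates numbered 2423, and 1355 to 2542 with 1 sum left out, the lowest being the 1355 to 1496 without a Cd31+ sum. KO against WT in Cd31+ sums called 0 genes, against 1 with the preparation as a block, with RLE factors or with only endothelial-like wells, 104 without the low-count filter, 37 with DESeq2, 5 with thinned wells and 5 to 311 with 1 sum left out. In Cd31- sums 0 became 24 without the filter, 5 with DESeq2 and 0 to 79 with 1 sum left out, and for the interaction 163, 46 and 0 to 42. The block changed no call of a named gene other than those given for Tead2, Vgll3 and EYFP.

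Signs turned as follows (log2 fold changes). Between gates, Yap1 was −0.13 and Amotl2 0.32 with endothelial-like against smooth muscle-like wells. With 1 sum left out, Yap1 ranged from −0.22 to 0.55, Tead1 from −0.88 to 0.36, Lats1 from −0.68 to 0.99 and Amotl2 from −0.56 to 0.20. In KO against WT Cd31+ sums, thinned wells gave Yap1 −0.45, Wwtr1 −0.069, Lats2 −0.12 and Ctgf 0.54, and the preparation as a block gave Ctgf 0.39. With 1 sum left out the ranges were −0.080 to 0.28 for Yap1, −0.037 to 0.16 for Wwtr1, −0.00049 to 0.37 for Lats2 and −0.94 to 2.0 for Ctgf. In Cd31- sums Wwtr1 was 0.18 with the block and 0.14 in deeper wells, and Cyr61 −0.19 in deeper and −0.30 in smooth muscle-like wells. With 1 sum left out Wwtr1 ranged from −0.76 to 1.5, Tead1 from −0.079 to 2.43 and Cyr61 from −0.26 to 0.47. For the interaction the ranges were −1.41 to 0.81 for Wwtr1, −2.24 to 1.20 for Ctgf and −8.89 to 3.63 for Ankrd1.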
